A study of Mus musculus with 2 samples.

Results

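Collagens are the fibrous proteins of the extracellular matrix, and each collagen molecule is a triple helix of chains that are encoded by separate genes. The collagen chain genes described here are all rows whose symbol reads Col, a number, the letter a and a number, with nothing after it. The table of mCherry-positive mouse heart cells held 38 such genes among 15247. A list of 45 mouse chains served to sort them by type. It gave 9 fibrillar chains, 6 chains of type IV, 5 of type VI, 2 of the hexagonal network type VIII, 2 multiplexins, 8 fibril-associated chains (FACIT), 4 transmembrane chains, 1 anchoring fibril chain (Col7a1) and Col26a1. Col2a1, Col6a4, Col10a1, Col19a1, Col21a1, Col24a1 and Col28a1 were not analysed here.

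The cells came from hearts of C57BL/6 p16-FDR mice aged 20 to 22 months. This strain carries an FLP recombinase and a diphtheria toxin receptor fused to the red fluorescent protein mCherry. Cells positive for mCherry were sorted by flow cytometry and profiled with a droplet 3' kit, which counts each captured transcript end as a unique molecular identifier (UMI). All cells belong to 1 group of 2 samples, with no unsorted, mCherry-negative or young cells to compare them with. Prefixes in the cell names divide the cells into 2 libraries, written Heart1 and Heart2. The labels do not tie a library to a sample record, and they do not say whether the libraries came from separate animals. P-values therefore cover only the spread of group differences between these libraries, estimated in part from other genes. That spread may be technical.

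Heart1 held 266 cells with 3304045 UMIs (median 11352 per cell) and Heart2 held 1160 cells with 10632723 UMIs (median 8886). No barcode was shared between them (0). Cells were gated on marker genes, with no collagen gene among them. A fibroblast had a UMI for at least 3 of the 6 markers Dcn, Lum, Dpt, Pdgfra, Serping1 and Gsn and for at most 1 marker of each other set. A macrophage had at least 3 of Lyz2, C1qa, C1qb, Tyrobp, Fcer1g and Csf1r by the same rule. This gave 173 fibroblasts and 32 macrophages in Heart1, and 890 and 155 in Heart2. The 6 macrophage markers summed to 46270 and 46672 UMIs per 1000000 UMIs (CPM) in macrophages and to 6.95 and 14.5 CPM in fibroblasts. Fibroblast markers summed to 43661 and 57119 CPM in fibroblasts. In macrophages they summed to 155 and 200 CPM, of which Gsn made up 155 and 193 CPM, while Dpt and Pdgfra were at 0 in both libraries.

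Fibrillar collagens of types I, III and V are assembled into the banded fibrils that carry tension in the heart wall, and fibroblasts are known as their main source. Type IV collagen forms the sheet-like network of basement membranes around muscle cells and vessels. Type VI forms beaded filaments near cell surfaces, type VIII forms hexagonal nets, and FACIT chains such as Col12a1, Col14a1 and Col22a1 sit on the surface of other fibrils. Types XV and XVIII are multiplexins, with a collagen domain that is broken many times and lies near basement membranes. Wif1 encodes a secreted inhibitor of Wnt signals, Thbs4 a matrix glycoprotein of the thrombospondin family, and Pi16 a secreted peptidase inhibitor that marks a widespread fibroblast state.

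The triple helix needs a glycine at the start of each triplet of residues, so the coding sequence of a chain repeats a codon of the form GGN. The next 54-base pieces are shown because they carry this repeat in the chains on which the results turn. They were read from GRCm38 in the direction of transcription, at exon positions of GENCODE M21. In the 3 most abundant chains and in Col5a3 each piece is 1 whole coding exon, with the GGN codon that starts each triplet in capitals. A GGN codon at another place in a triplet is in lower case there.
Col1a1 (chr11:94939904-94939957, plus strand, exon 8): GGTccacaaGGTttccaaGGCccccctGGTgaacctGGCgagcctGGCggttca
Col1a2 (chr6:4515481-4515534, plus strand, exon 8): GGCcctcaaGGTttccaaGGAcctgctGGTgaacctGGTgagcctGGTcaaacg
Col3a1 (chr1:45325360-45325413, plus strand, exon 6): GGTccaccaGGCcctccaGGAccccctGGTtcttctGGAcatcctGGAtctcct
Col5a3 (chr9:20801068-20801121, minus strand, exon 15): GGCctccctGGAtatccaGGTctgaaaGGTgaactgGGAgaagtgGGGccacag
The pieces of the 3 chains below come from stretches in which the repeat is broken, with every GGN codon in frame in capitals.
Col4a1 (chr8:11241137-11241190, minus strand, exon 13): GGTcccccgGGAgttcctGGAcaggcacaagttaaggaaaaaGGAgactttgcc
Col4a2 (chr8:11402172-11402225, plus strand, exon 8): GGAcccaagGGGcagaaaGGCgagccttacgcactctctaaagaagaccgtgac
Col15a1 (chr4:47270288-47270341, plus strand, exon 13): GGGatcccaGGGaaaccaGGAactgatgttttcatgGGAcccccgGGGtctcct

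The types differed in this repeat, which is a description and not a check of the sorting of the genes. The longest unbroken run of GGN triplets was 337 to 344 triplets in 8 of the 9 fibrillar chains and 217 in Col27a1. Fibrillar chains had 21 to 33 coding exons of exactly 54 bases. The 6 type IV chains had 22 to 27 separate runs of 5 or more triplets, a longest run of 39 to 66 and only 1 to 3 exons of 54 bases. The FACIT chain Col16a1 (21 runs, longest 52) and the anchoring fibril chain Col7a1 (20 runs, longest 75) were close to them in the number of runs. Col15a1 and Col18a1 had 11 and 14 runs, the longest of 30 triplets in both. Among FACIT chains, Col22a1 had 28 exons of 54 bases and a longest run of 113, whereas Col12a1 and Col14a1 each had 4 such exons and a longest run of 32.

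**Figure D1:**
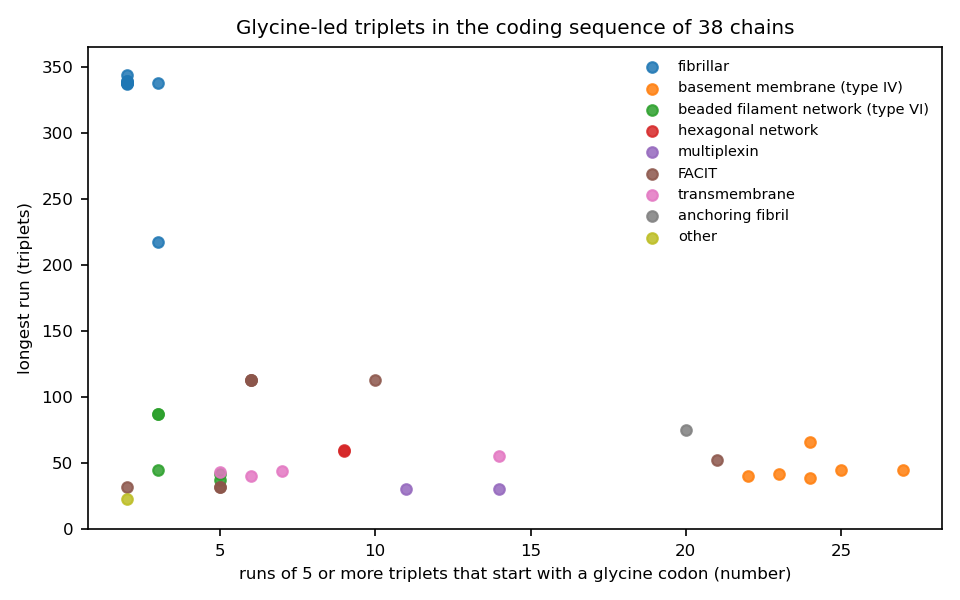
Each point is 1 of 38 collagen chains, with the number of runs of 5 or more glycine-led triplets on the x axis, the longest run in triplets on the y axis and the chain type as colour. The fibrillar chains stand at the upper left with 2 or 3 runs and the type IV chains at the right with 22 to 27.

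The 3 type IV gene pairs lie head to head, on opposite strands. The annotated starts of Col4a1 and Col4a2 are 21 bases apart, those of Col4a3 and Col4a4 72 bases and those of Col4a5 and Col4a6 1309 bases. The 30 bases around the first pair of starts are shown because both genes differed in the same direction between fibroblast subsets. They are from RefSeq (GRCm38.p6), plus strand, with the stretch from the Col4a2 start to the Col4a1 start in capitals. The 2 annotated genes overlap there, so these 22 bases lie within both genes and not between them.
Col4a1 and Col4a2 (chr8:11312801-11312830): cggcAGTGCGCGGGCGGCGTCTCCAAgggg
These letters hold the motif GGGCGG. In RefSeq promoter windows, from 250 bases before to 50 after a start and searched on both strands, GGGCGG was in 22 of 33 windows of 30 collagen genes and in 35.7% of all 32851 windows. CCAAT was in 12 of the 33 and in 37.4% of all, and TATAAA in 4 and in 13.6%. A match is a description of the letters only.

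Collagen transcripts made up close to 1% of the fibroblast UMIs in both libraries. Their share was 0.992% in Heart1 and 0.953% in Heart2 (mean 0.973% ± 0.0273, SD, n = 2 libraries). In macrophages it was 0.0140% (39 UMIs) and 0.00707% (105 UMIs). The median fibroblast held UMIs of 15 different chains in each library. After thinning every cell to 3000 UMIs the median was 10 chains, while 71.9% and 76.8% of macrophages then had no collagen UMI.

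Fibrillar chains held 63.2% and 56.7% of the collagen UMIs of fibroblasts (Heart1, then Heart2, here and below). Since each UMI is a transcript end, levels of different genes can be set side by side without a length correction. Col3a1, the chain of type III, was the most abundant at 2050 and 2014 CPM. The 2 chains of type I, Col1a2 and Col1a1, followed at 1810 and 1423 CPM and at 1608 and 1095 CPM. This order was the same in both libraries, and the 95% counting intervals of neighbours did not overlap. Among the chains of type V, which help to start fibrils and set their width, Col5a1 was at 254 and 284 CPM, Col5a2 at 375 and 227 CPM and Col5a3 at 114 and 305 CPM. Col27a1 was at 44.3 and 56.2 CPM. Col11a1 (7.39 and 1.26 CPM) and Col11a2 (5 UMIs and 0) were near the limit of detection.

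Type IV chains held 7.90% and 10.2% of fibroblast collagen UMIs. Col4a1 and Col4a2, the chains of most basement membranes, stood at 409 and 545 CPM and at 209 and 219 CPM. The other 4 were lower, with Col4a4 at 80.4 and 107 CPM, Col4a5 at 44.8 and 62.8 CPM, Col4a3 at 24.8 and 21.8 CPM and Col4a6 at 15.6 and 15.4 CPM. Type VI chains held 12.3% and 17.9%. Their levels were 498 and 675 CPM for Col6a1, 401 and 523 CPM for Col6a2, 284 and 413 CPM for Col6a3 and 35.2 and 97.9 CPM for Col6a6. Col6a5 had 10 and 5 UMIs.

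Col15a1 and Col8a1 ranked with the abundant chains. Col15a1 was at 638 and 904 CPM, and its fellow multiplexin Col18a1, whose cleaved end is endostatin, at 26.9 and 19.2 CPM. Col8a1 was at 640 and 323 CPM and its partner Col8a2 at 7.39 and 3.03 CPM. FACIT chains held only 3.24% and 1.94% of fibroblast collagen UMIs. The leading FACIT chains were Col14a1 at 121 and 111 CPM, Col16a1 at 92.1 and 53.7 CPM and Col12a1 at 84.3 and 10.6 CPM. Col22a1 had 33 and 18 UMIs, Col20a1 10 and 35, Col9a2 11 and 21, Col9a3 2 and 7, and Col9a1 0 in both. The transmembrane chains Col13a1, Col17a1, Col23a1 and Col25a1 had at most 24 UMIs each in a library, and Col7a1 1 and 8 UMIs.

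**Figure D2:**
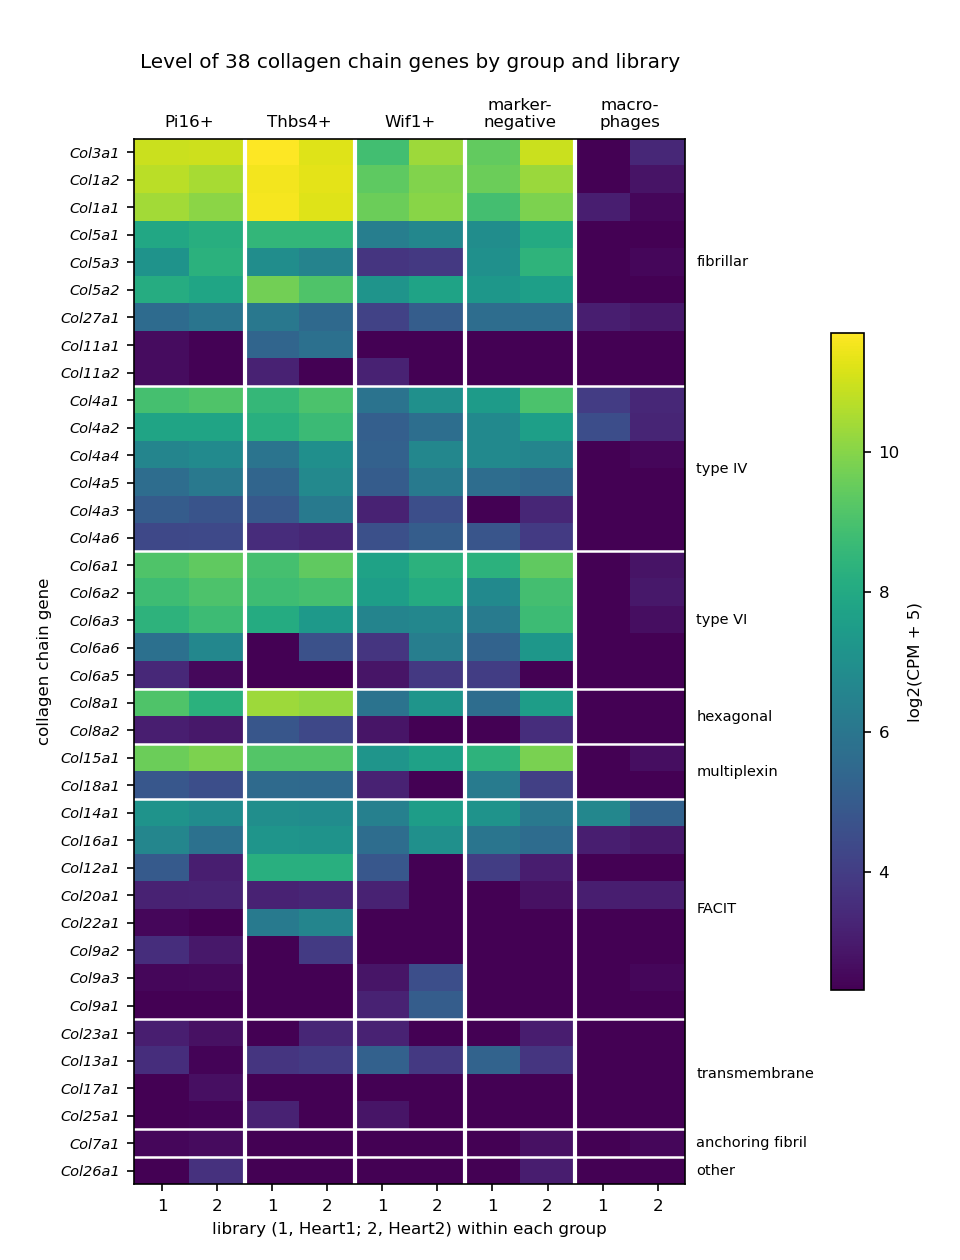
Colour gives the level of each of 38 collagen chain genes as log2(CPM + 5), with 1 column per library (1 is Heart1, 2 is Heart2) in 4 fibroblast subsets and macrophages. Col3a1, Col1a2 and Col1a1 are the brightest rows in fibroblasts, and Col14a1 is the brightest row in macrophages.

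Fibroblasts were compared with macrophages to ask which chains set the sorted fibroblasts apart. All 22 chains that passed a filter of a mean of 10 CPM were higher in fibroblasts, and 0 were lower (limma adjusted p under 0.05). Over all 8788 genes tested 41.3% were called, 24.6% higher and 16.7% lower, and 47.7% had an unadjusted p under 0.05. The other 16 chains were below the filter. A chain that passed it only through its fibroblast level had to differ, and 8 of the 22 had no macrophage UMI at all, so this count is a description. The median difference of the 22 was 5.20 on the log2(CPM + 5) scale, also with those 8 at their lower bound, against 0.17 for all genes. By type the medians were 5.89 for 7 fibrillar chains, 6.08 for 4 of type VI, 3.87 for 5 of type IV and 2.90 for 3 FACIT chains.

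The 8 largest differences were those of Col3a1 (8.14 ± 0.25, SE), Col1a2 (8.09), Col1a1 (7.58), Col15a1 (7.08), Col6a1 (6.63), Col8a1 (6.52), Col6a2 (6.22) and Col6a3 (5.95). Each was called in all 9 other settings that gave a test. The fit rests on 4 sums and 1 residual degree of freedom, with 17.2 prior degrees taken from the spread of other genes. Col1a1 illustrates the range, with 3699 and 8674 UMIs in fibroblasts and 1 and 1 in macrophages. The 2 groups did not overlap for any of these 8 chains. Here and below, such a statement describes 2 library values on each side, and the share of all genes without overlap is not given.

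Col14a1 was the exception in size. It had 97.0 and 33.7 CPM in macrophages against 121 and 111 CPM in fibroblasts, so that the macrophage values lay closer to the fibroblast values than for any other of the 22 chains. The difference was 0.94 ± 0.28 (adjusted p = 0.00983), made up of 0.30 in Heart1 and 1.58 in Heart2. It was not called without the library block (adjusted p = 0.182) or after thinning (adjusted p = 0.0788), and ranged down to an adjusted p of 0.00066 in the other settings. With Heart1 left out it was 1.58 and with Heart2 left out 0.30, with no test.

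In macrophages 13 of 32 cells (40.6%, exact interval 23.7 to 59.4%) and 30 of 155 cells (19.4%, 13.5 to 26.5%) had a Col14a1 UMI. In fibroblasts the shares were 50.3% and 36.1%. Median depths were 7558 and 9427 UMIs per macrophage and 11871 and 8684 per fibroblast. After thinning to 3000 UMIs the shares were 21.9% and 8.39% in macrophages and 26.6% and 19.1% in fibroblasts. Col3a1, the most abundant chain in fibroblasts, had 0 and 8 UMIs in the same macrophages (0 and 5.16% of cells), against 27 and 50 of Col14a1. The ratio of Col14a1 to Col3a1 was 6.25 in macrophages of Heart2 (exact interval 2.94 to 15.3) and 0.0549 in fibroblasts of that library (0.0513 to 0.0588). In Heart1 the fibroblast ratio was 0.0589, and the macrophage ratio had a lower limit of 6.83. This ratio was chosen after the values were seen. FACIT chains held 74.4% and 57.1% of the few collagen UMIs of macrophages. Type IV chains held 20.5% and 15.2%, from 3 and 8 UMIs of Col4a1, 5 and 7 of Col4a2 and 0 and 1 of Col4a4.

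**Figure D3:**
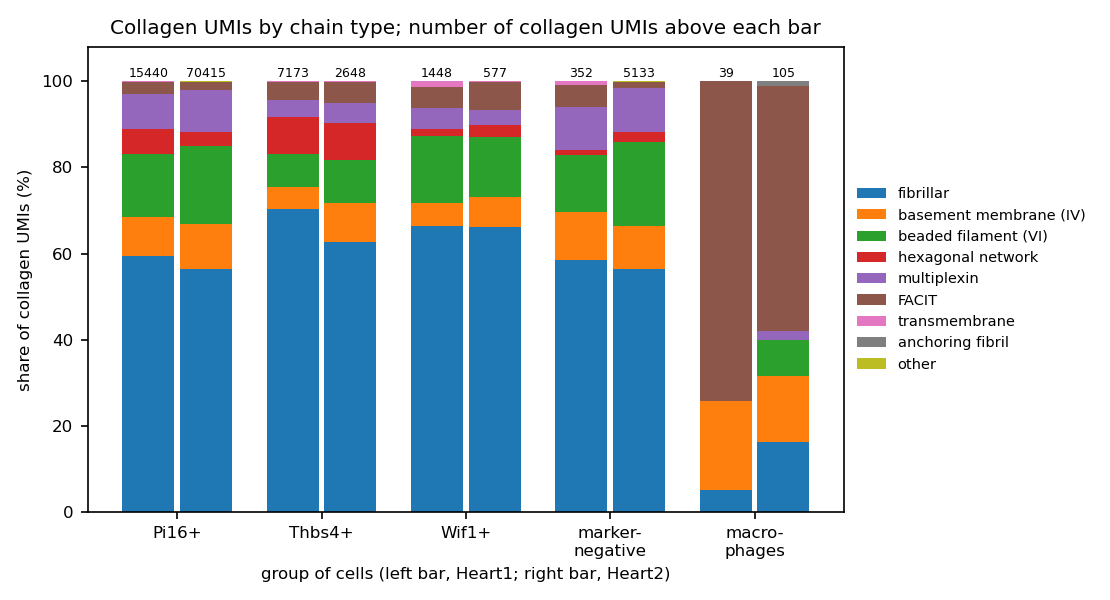
Each bar splits the collagen UMIs of a cell group and library (left bar Heart1, right bar Heart2) into chain types, as a percentage, with the number of collagen UMIs above it. Fibrillar chains hold 56.5 to 70.2% in the fibroblast subsets, and FACIT chains hold 74.4% and 57.1% of the 39 and 105 UMIs of macrophages.

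Fibroblasts were then split by the subset markers Wif1, Thbs4 and Pi16, each counted as positive from 1 UMI. For this split the gate left the mural cell markers out, because 2 or more of them occurred in 20 of 36 and 5 of 9 Wif1-positive cells. Of the 203 and 929 fibroblasts so gated, 38 and 10 (18.7% and 1.08%) had a Wif1 UMI, 28 and 16 (13.8% and 1.72%) a Thbs4 UMI and 182 and 848 (89.7% and 91.3%) a Pi16 UMI. None of the 3 was seen in 10 and 77 cells. The Wif1-positive group held 36 and 9 cells without Thbs4 and the Thbs4-positive group 26 and 15 cells without Wif1, whether or not they had Pi16. The Pi16-positive group held 129 and 827 cells with neither of the other markers. In macrophages the 3 subset markers summed to 0 and 7.41 CPM.

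Median depth differed between the groups, at 11902 and 12026 UMIs for Wif1-positive, 16060 and 12483 for Thbs4-positive, 11408 and 8802 for Pi16-positive and 6450 and 7306 for marker-negative cells. Marker-negative cells were the shallowest in both libraries, and the part of depth in the split was not tested; values after thinning are given with the other settings. The comparisons below share groups and 1 fit across 10 sums (4 residual and 4.76 prior degrees of freedom), so they are not independent of each other. In this fit 25 of the 38 chains passed the filter and 13 did not. Of the 25, Col12a1, Col22a1 and Col4a3 passed only through their Thbs4-positive level, Col4a6 only through its Wif1-positive level, and Col13a1 needed both its Wif1-positive and its marker-negative levels. Such chains were tested only because of their level in that subset, so their calls in comparisons with it are descriptions.

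Wif1-positive fibroblasts had the lowest collagen share in Heart1, with 0.317%, and in Heart2, with 0.549%, of the 4 groups. Thbs4-positive fibroblasts had the highest, at 1.53% and 1.34%. Pi16-positive fibroblasts were at 0.953% and 0.954%, and marker-negative ones at 0.403% and 0.874%. Within Wif1-positive cells the share was 0.395% and 0.468% in cells with at most 1 mural marker (16 and 4 cells), and 0.248% and 0.615% in cells with 2 or more (20 and 5 cells). Single cells spread widely, from 0.0635 to 1.02% in Wif1-positive cells of Heart1 and from 0.253 to 3.06% in Thbs4-positive cells of that library.

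**Figure D4:**
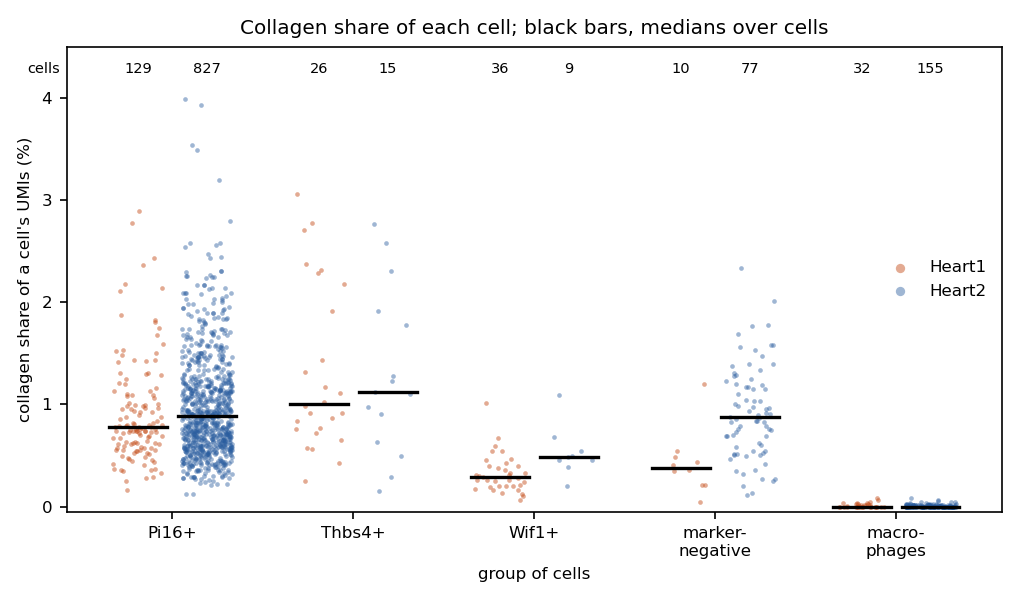
Each point is 1 cell and gives the percentage of its UMIs from the 38 collagen genes, by group, with Heart1 in orange and Heart2 in blue, a black bar at the median over cells and the number of cells on top. Macrophages lie near 0, and medians are 0.286 and 0.490% in Wif1-positive cells and 1.005 and 1.13% in Thbs4-positive cells.

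Wif1-positive fibroblasts had lower levels of several basement membrane, type V, type VI and multiplexin chains than Pi16-positive fibroblasts. Of 25 chains 6 were lower and 0 higher, while 2.03% of all 9002 genes were called, 1.11% lower and 0.922% higher. The 6 were 2 of 7 fibrillar chains (Col5a3 and Col5a1), 2 of 6 type IV chains (Col4a1 and Col4a2), 1 of 4 type VI chains (Col6a1) and Col15a1. At an unadjusted p under 0.05 there were 14 chains, beside 12.1% of all genes. In both libraries 19 chains were below 0 and 2 above, a description, since the share of all genes with 1 sign in both is not given. The median difference over the 25 was -1.11 against -0.10 for all genes.

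Col5a3, a minor chain of type V, stood out in this comparison. It was at 8.76 and 9.52 CPM in Wif1-positive fibroblasts (4 UMIs and 1 UMI) and at 135 and 315 CPM in Pi16-positive ones, with no overlap. The difference was -3.90 ± 0.47 (limma adjusted p = 0.00484). In Heart2 the ratio of the levels was 33.1 with a counting interval of 5.93 to 1307, since the lower value is 1 UMI. Against marker-negative fibroblasts, at 126 and 339 CPM, Col5a3 differed by -3.91 ± 0.47 (adjusted p = 0.00630). The ratio of Col5a3 to Col5a1, chosen after the values were seen, was 0.118 and 0.100 in Wif1-positive cells and 0.554 and 1.10 in Pi16-positive ones. Its exact intervals in Wif1-positive cells were wide, at 0.0303 to 0.330 and 0.00230 to 0.703. The planned ratio of Col5a1 to Col5a2 was 0.531 and 0.455 in Wif1-positive and 0.896 and 1.30 in Pi16-positive cells.

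The paired basement membrane genes were both lower. Col4a1 was at 54.7 and 124 CPM in Wif1-positive and 479 and 553 CPM in Pi16-positive fibroblasts, a difference of -2.57 ± 0.44 (adjusted p = 0.0236). Col4a2 was at 30.7 and 47.6 CPM against 217 and 220 CPM, a difference of -2.37 ± 0.45 (adjusted p = 0.0340). Both groups of values were apart in both libraries. The other 4 type IV chains were not called, and Col4a6 had an estimate above 0 (0.48 ± 0.45).

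Col15a1 was at 145 and 200 CPM in Wif1-positive against 758 and 920 CPM in Pi16-positive fibroblasts (-2.26 ± 0.31, adjusted p = 0.00864). Col5a1, a chain of the main type V trimer, was at 74.4 and 95.2 CPM against 244 and 286 CPM (-1.59 ± 0.31, adjusted p = 0.0386). Col6a1 was at 208 and 324 CPM against 553 and 676 CPM (-1.22 ± 0.22, adjusted p = 0.0288). The groups did not overlap for any of these 3. The major fibrillar chains were not called. Col3a1 was at 455 and 1286 CPM against 1961 and 2021 CPM (-1.37 ± 0.45, adjusted p = 0.232), and Col1a1 at 755 and 1048 CPM against 1327 and 1077 CPM (-0.42 ± 0.34, adjusted p = 0.715). Col8a1 was not called either, at 54.7 and 143 CPM against 549 and 312 CPM (-2.16 ± 0.57, adjusted p = 0.123).

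The transmembrane chain Col13a1 had an estimate above 0 that was not called (1.57 ± 0.54, adjusted p = 0.255), from 32.8 and 9.52 CPM against 6.79 and 0.271 CPM. Col9a1 had 2 and 3 UMIs in Wif1-positive fibroblasts and 0 in Pi16-positive, Thbs4-positive and marker-negative ones, and it was below the filter. All of its UMIs lay in cells that the gate with the mural set leaves out, and fibroblasts of that gate had 0 in both libraries. Mural markers moved with this comparison. The 4 measured mural genes summed to 355 and 162 CPM in Wif1-positive against 48.1 and 31.7 CPM in Pi16-positive fibroblasts, with all 4 above 0 in Wif1-positive cells of both libraries. Rgs5 was seen in 41.7% and 22.2% of Wif1-positive cells and in 1.55% and 0.242% of Pi16-positive cells. Their part in the collagen differences was not tested. In Wif1-positive cells with at most 1 mural marker (16 and 4 cells) Col5a3 had 2 UMIs and 0, and Col15a1 was at 168 and 192 CPM. Levels of the other called chains in these cells are not given. Macrophage markers summed to 6.57 CPM and 0 in Wif1-positive and to 6.17 and 13.4 CPM in Pi16-positive cells. Fibroblast markers summed to 45746 and 48721 CPM in Wif1-positive and 48742 and 57995 CPM in Pi16-positive cells.

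The calls rested on both libraries. With Heart1 or with Heart2 left out of the compared groups, 0 of 25 chains were called in either case, and the differences of the 6 kept their sign. Col5a3 was called in all 12 other settings, Col15a1 in 11, Col4a1 and Col4a2 in 8 each, Col6a1 in 6 and Col5a1 in 5.

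Between Thbs4-positive and Pi16-positive fibroblasts the 1 call was that of a FACIT chain, Col22a1. Of 25 chains 1 was higher and 0 were lower, while 0.233% of all genes were called, 0.100% higher and 0.133% lower. At an unadjusted p under 0.05 there were 7 chains, beside 5.92% of all genes. Col22a1, a chain known from tissue junctions, was at 68.1 and 91.1 CPM in Thbs4-positive fibroblasts (32 and 18 UMIs in 5 and 3 cells) and had 1 UMI and 0 in Pi16-positive ones. The difference was 3.98 ± 0.35 (limma adjusted p = 0.00325). Col22a1 averaged 15.98 CPM over the 10 sums and 0.0771 CPM without the Thbs4-positive ones, so it entered the test only through the group where it was high, and its call is a description of few cells. In Heart1 the ratio was 110 with a counting interval of 18.4 to 4492, and in Heart2 the level was at least 224-fold higher, taking 3 UMIs as the limit for a count of 0.

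Col12a1, a FACIT chain of tendon-like and loaded tissue, was at 298 and 294 CPM in Thbs4-positive and 26.5 and 3.52 CPM in Pi16-positive fibroblasts. The values did not overlap. A UMI was seen in 19 of 26 and 9 of 15 Thbs4-positive cells, in 11.6% and 2.90% of Pi16-positive cells and in 0 macrophages, where 0 of 32 and of 155 cells allow at this depth up to 9.38% and 1.94% of cells to have a UMI. The difference of 4.20 ± 0.67 missed the threshold (adjusted p = 0.0606). It was called in 4 of 13 other settings, with adjusted p from 2.6e-10 to 0.386. Col11a1 had 17 and 10 UMIs in Thbs4-positive fibroblasts and 2 and 1 in Pi16-positive ones, and it was below the filter. Over all cells of both libraries, only 11 had a Col11a1 UMI, with up to 7 UMIs in 1 cell.

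Other fibrillar chains had estimates above 0 that were not called. Col5a2 was at 819 and 547 CPM against 272 and 221 CPM (1.43 ± 0.30, adjusted p = 0.161) and Col1a1 at 3025 and 2435 CPM against 1327 and 1077 CPM (1.18 ± 0.34, adjusted p = 0.405). The network chain Col8a1 was at 1281 and 1139 CPM against 549 and 312 CPM (1.53 ± 0.57, adjusted p = 0.683). Col6a6 had the lowest estimate, at 0 and 20.3 CPM against 49.4 and 95.9 CPM (-2.72 ± 0.64, adjusted p = 0.233). For these 4 chains the 2 groups did not overlap, which with 2 values on each side is a description and no test.

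Fibroblast markers summed to 28483 and 30586 CPM in Thbs4-positive cells, below the 48742 and 57995 CPM of Pi16-positive cells. Their part in the differences was not tested. With Heart1 or with Heart2 left out, 0 chains were called. When only the 2 compared groups were fitted 14 chains were called, 10 higher and 4 lower, and with the stricter gate 0. The share of all genes called in either of these fits is not given, so the counts are descriptions.

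**Figure D5:**
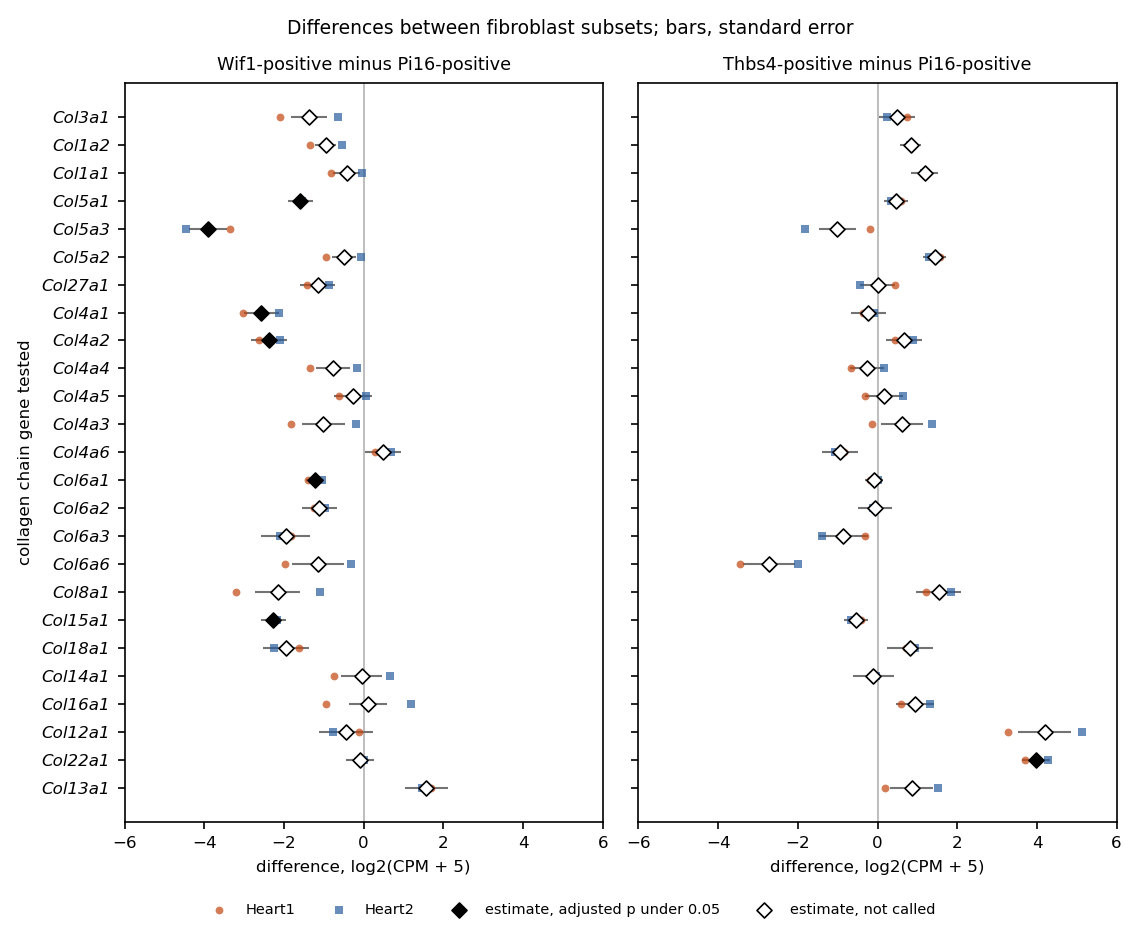
Differences on the log2(CPM + 5) scale for the 25 collagen chains tested, Wif1-positive minus Pi16-positive on the left and Thbs4-positive minus Pi16-positive on the right. Diamonds with bars are estimates with standard errors (filled where called), circles are Heart1 and squares Heart2; 6 diamonds on the left and that of Col22a1 on the right are filled.

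The direct comparison of the Wif1-positive with the Thbs4-positive fibroblasts gave the most calls among the subset comparisons. Of 25 chains 13 were lower in Wif1-positive cells and 0 higher, against 3.08% of all genes called, 1.68% lower and 1.40% higher. At an unadjusted p under 0.05 there were 19 chains, beside 16.8% of all genes. They were 5 of 7 fibrillar, 2 of 6 type IV, 1 of 4 type VI and 2 of 4 FACIT chains, with Col8a1 and both multiplexins. Of the 13, Col12a1 and Col22a1 passed the filter only through their Thbs4-positive level, so their calls are descriptions. Col12a1 was at 24.1 CPM and 0 against 298 and 294 CPM (-4.64 ± 0.67, adjusted p = 0.00873), and the difference was -3.27 with the count of 0 set to 3 UMIs. Col22a1 had no UMI in Wif1-positive cells and was at least 10.4-fold and 3.19-fold higher in Thbs4-positive ones. Col8a1 was at 54.7 and 143 CPM against 1281 and 1139 CPM (-3.69 ± 0.57, adjusted p = 0.0112). Col4a2 (-3.03), Col5a3 (-2.90), Col18a1 (-2.76, or -1.39 with its 0 in Heart2 set to 3 UMIs), Col4a1 (-2.34), Col5a1 (-2.06), Col5a2 (-1.93), Col1a2 (-1.78), Col15a1 (-1.73), Col1a1 (-1.60) and Col6a1 (-1.13) followed. Col4a6 (1.43 ± 0.45, adjusted p = 0.157) and Col6a6 (1.57 ± 0.64, adjusted p = 0.262) had estimates above 0 in both libraries and were not called. The count was 2 with Heart1 left out and 0 with Heart2 left out, and 4 with the stricter gate. Mural markers summed to 355 and 162 CPM in Wif1-positive against 44.7 and 35.4 CPM in Thbs4-positive cells, with Rgs5 at 0 in Thbs4-positive cells of both libraries. Fibroblast markers summed to 45746 and 48721 CPM against 28483 and 30586 CPM. The part of either set in these differences was not tested.

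Against marker-negative fibroblasts, Thbs4-positive ones were higher for 6 chains and lower for 0 (0.933% of all genes called, 0.544% higher and 0.389% lower). At an unadjusted p under 0.05 there were 13 chains, beside 14.2% of all genes. The 6 were Col12a1 (4.68 ± 0.67, adjusted p = 0.0183), Col22a1 (at least 1.98-fold and 17.9-fold), Col8a1 (3.64), Col1a1 (2.04), Col5a2 (1.95) and Col1a2 (1.48). Of these, Col12a1 and Col22a1 passed the filter only through their Thbs4-positive level, and their calls are descriptions. The count was 0 with Heart1 left out, 2 with Heart2 left out and 1 with the stricter gate. Wif1-positive fibroblasts were lower for 2 chains, Col5a3 and Col15a1 (1.43% of all genes called, 0.778% lower and 0.655% higher), and 8 chains had an unadjusted p under 0.05, beside 17.3% of all genes. Col15a1 was at 145 and 200 CPM against 332 and 890 CPM (-1.65 ± 0.31, adjusted p = 0.0422), and it was called in 7 of 12 other settings. With 1 library left out, the difference between Wif1-positive and marker-negative cells ranged from -4.56 to -3.25 for Col5a3 and from -2.13 to -1.17 for Col15a1.

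Between Pi16-positive and marker-negative fibroblasts no chain was called (0 of 21) by limma, at 0.0111% of all genes, and 3 chains had an unadjusted p under 0.05, beside 4.21% of all genes. Of the 21, 13 were above 0 in both libraries and 0 were below in both. The share of all genes with 1 sign in both libraries is not given, so these counts are a description. The median difference over the 21 was 0.56, against -0.01 for all genes. The largest estimate was that of Col8a1 (2.13 ± 0.62, adjusted p = 0.818). The marker-negative group of Heart1 holds only 10 cells of low depth. Pi16 was also taken as a level, by setting the cells with the highest Pi16 share against those with the lowest among fibroblasts without Wif1 and Thbs4 (35 cells on each side in Heart1, 226 in Heart2). The lowest side includes the 10 and 77 marker-negative cells gated without the mural set, so this comparison by level is not separate from the one above. The comparison by level called 0 of 21 chains, at 0.0790% of all genes (0.0564% higher and 0.0226% lower), with 5 chains at an unadjusted p under 0.05, beside 6.34% of all genes. The nearest were Col6a6 (-1.26 ± 0.29, adjusted p = 0.273), Col8a1 (1.46 ± 0.40, adjusted p = 0.424) and Col14a1 (1.01 ± 0.31, adjusted p = 0.512). Fitted on those cells alone it called 3 chains, a description, since the share of all genes called in that fit is not given.

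Library differences within fibroblasts were large for some chains, and they have no test because each side is 1 library. Col12a1 was 7.95-fold higher in Heart1 than in Heart2 (counting interval 6.12 to 10.4). Within Pi16-positive fibroblasts, where Thbs4-positive cells were left out, the ratio was 7.53 (4.52 to 12.8). Col8a1 had a ratio of 1.98 in all fibroblasts and 1.76 in Pi16-positive ones. In the other direction, Col5a3 had a ratio of 0.373 (0.327 to 0.424) and 0.429 in Pi16-positive cells, and Col6a6 0.360 and 0.515. Col3a1 was alike in both, with a ratio of 1.02 (0.985 to 1.05). Col26a1 was seen in 51 fibroblasts of Heart2 (57 UMIs, 7.20 CPM) and in none of Heart1, so its level was at least 5.52-fold higher in Heart2. Of 23 chains at 10 CPM or more, 13.0% differed 2-fold or more between the libraries on the log2(CPM + 5) scale, against 3.56% of 8578 genes.

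For some chains that share a trimer, the proportions differed between groups beyond counting error. Type I collagen is built from both Col1a1 and Col1a2, and the ratio of Col1a1 to Col1a2 UMIs was 0.794 (exact interval 0.750 to 0.840) and 0.762 (0.740 to 0.784) in Pi16-positive fibroblasts. It was 1.01 (0.941 to 1.09) and 0.972 (0.855 to 1.10) in Thbs4-positive and 1.16 (0.992 to 1.36) and 1.09 (0.824 to 1.44) in Wif1-positive ones. In each library the intervals of both of these groups lay above that of Pi16-positive cells. The ratio of Col4a1 to Col4a2 was 2.21 and 2.52 in Pi16-positive, 1.26 and 1.26 in Thbs4-positive and 1.79 and 2.60 in Wif1-positive cells. Col6a1 and Col6a2 stayed between 1.11 and 1.40 in these groups. Col6a3 to Col6a1 was 0.596 and 0.625 in Pi16-positive cells and 0.544 and 0.231 in Thbs4-positive ones. The intervals cover counting error only, and no test was made between groups.

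Across single fibroblasts thinned to 3000 UMIs, pairs of chains went together to different degrees, whether or not they share a trimer. These are descriptions over 173 and 890 cells of 1 library each, and low counts limit them. Spearman's rho was 0.564 and 0.431 for Col1a1 and Col1a2 and 0.613 and 0.390 for Col1a1 and Col3a1, which belong to different types. It was 0.289 and 0.285 for Col4a1 and Col4a2, which share their start region. It was 0.301 and 0.329 for Col6a1 and Col6a2 and -0.014 and 0.070 for Col4a3 and Col4a4, which are sparse. Chains of different types gave 0.252 and 0.314 for Col1a1 and Col4a1 and 0.470 and 0.207 for Col3a1 and Col8a1. Other such pairs were Col1a1 and Col15a1 (0.152 and 0.269), Col3a1 and Col5a3 (0.283 and 0.220) and Col4a1 and Col15a1 (0.192 and 0.259). Values of this size were therefore not particular to chains of 1 trimer.

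Genes that process and degrade collagen were taken from a list of 64, of which 60 were in the table. Between fibroblasts and macrophages 38 of 53 tested were higher and 6 lower, beside 24.6% higher and 16.7% lower of all genes. Serpinh1, the collagen chaperone of the endoplasmic reticulum, was at 1442 and 1173 CPM in fibroblasts and 3.59 and 2.69 CPM in macrophages (7.33 ± 0.23). Mmp2, a gelatinase (7.08), Timp3, a metalloproteinase inhibitor (7.07), Pcolce, an enhancer of propeptide removal (7.03), and Loxl1, a crosslinking enzyme (6.45), were also higher. The 6 lower genes were the collagen-binding receptors Mrc1 (-7.33) and Lair1 (-5.05), the proteinases Mmp9 (-2.85) and Mmp13 (-2.84), the peptidase Pepd (-2.51) and the export factor Mia2 (-0.68).

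Fewer genes of this list were called between the subsets. Against Pi16-positive fibroblasts, Wif1-positive ones were lower for 3 of 52 genes and higher for 0, beside 1.11% lower and 0.922% higher of all genes. These were Mmp14, a membrane-bound collagenase (-1.91 ± 0.33), Loxl2, a crosslinking enzyme of basement membrane collagen (-1.64 ± 0.28), and Serpinh1 (-1.11 ± 0.19). Thbs4-positive cells had 0 genes called against Pi16-positive ones, with 7 of 52 at an unadjusted p under 0.05, beside 5.92% of all genes. Between Wif1-positive and Thbs4-positive cells 6 of 52 were lower and 0 higher, beside 1.68% lower and 1.40% higher of all genes. Among the 6 were 3 of 5 crosslinking genes, Lox (-3.35 ± 0.73), Loxl2 (-2.78 ± 0.28) and Loxl3 (-2.63 ± 0.42), with Ctsk (-1.76), P4ha1 (-1.42) and Serpinh1 (-1.20). Against marker-negative fibroblasts Thbs4-positive ones were higher for 2 of 52 genes (0.544% of all genes), Timp1 (2.89 ± 0.52) and Loxl2 (1.73 ± 0.28), and Wif1-positive ones lower for 2 of 52 (0.778% of all genes), Mmp14 (-2.05 ± 0.33) and Serpinh1 (-1.08 ± 0.19). These comparisons share groups, so their calls are not separate evidence.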

How the data were processed

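Heart cells positive for mCherry were profiled with a droplet 3' single-cell kit, per the labels' protocols. The submitters' processing notes name Cell Ranger 3.0.2 and mm10. Which tool scaled the values is not given in the sources used here. In the deposited table each value is a natural log, of 1 plus a gene's UMIs scaled to 10000 for the cell; undoing the log gave that total in each cell. Whole UMIs were recovered for 4459440 of 4459440 values (within 0.0001). No column was left out (0).

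The collagen genes, the marker and pathway lists and the tests were chosen with earlier results of these data known. UMIs were summed per library and group. As the deposited values are logs, these sums were tested as log2(CPM + 5) with limma 3.58.1 in R 4.3.3, with library as a block, a mean-variance trend and a filter of a mean of 10 CPM. P-values are two-sided and Benjamini-Hochberg adjusted over all genes tested, called under 0.05. The added 5 CPM shrinks differences of weakly detected genes. The fit was tested on simulated data.

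The planned subsets (1 marker alone, at least 10 cells in each library) left 6 and 2 Wif1-positive cells and 1 and 0 Thbs4-positive cells, so those 5 comparisons could not be fitted as planned. The fit reported for them was chosen after seeing the data. It drops the mural set from the gate, ignores Pi16 in Wif1-positive and Thbs4-positive cells and asks for 5 cells in each library. The comparison by Pi16 level (highest against lowest 25% of cells) was also added after seeing the data. Pi16-positive against marker-negative cells was fitted as planned, with 120 and 802 against 10 and 69 cells and the mural set in the gate.

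Genes named are the 8 called collagen genes with the largest differences in a comparison and the 5 called list genes, plus, chosen after their values were seen, the other called and nearest uncalled chains. Scrublet, run through scanpy 1.11.5, marked 13 doublets (0.912%), which were kept. Intervals are exact at 95% and cover counting error only; a count of 0 allows up to 3 UMIs. Alternatives were another scaling, totals without collagen, a pseudocount of 1, no filter, no block, the compared groups alone, a gate of 4 own and 0 other markers, doublets left out, means over cells, thinning to 3000 UMIs, markers counted from 2 UMIs or several per cell, and each library left out.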

Additional observations from a re-analysis of the deposited data

Results flagged for a closer look

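Cells outside the fibroblast and macrophage gates also held collagen UMIs, at shares above those of macrophages (0.0140% in Heart1 and 0.00707% in Heart2). Cells with markers of both types, 9 in Heart1 and 65 in Heart2, had 0.449% and 0.168% of their UMIs in collagen genes. Their median cell was at 0.0146% and 0.00818%, and 2 of the cells in each library were predicted doublets. Gated endothelial cells, 2 in Heart1 and 5 in Heart2, had 0.161% (13 UMIs, exact interval 0.0859 to 0.276%) and 0.133% (40 UMIs, 0.0951 to 0.181%). Type IV chains made up 100% and 55.0% of those UMIs, with 8 and 14 UMIs of Col4a1. No cause of these values was tested. With 2 libraries in a group, single libraries could not be checked as outliers.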

How the results depend on the processing

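Between fibroblasts and macrophages 19 to 31 chains were called, all higher, over the alternatives that gave a test, and between Pi16-positive and marker-negative fibroblasts 0. The share of all genes called under each alternative is not given, so counts of calls under alternatives, here and above, are descriptions. Over the named genes, 419 alternative values with a test gave 305 with the same call, 110 no longer called and 4 newly called; of 18 values without a test 8 moved by more than the standard error, and 0 of all values reversed in sign. A pseudocount of 1 CPM left 2 calls for Wif1-positive against Pi16-positive cells, 6 against Thbs4-positive and 1 against marker-negative ones, and 1 for Thbs4-positive against marker-negative. No filter on low genes gave 2, 1 and 2 calls for Wif1 against Pi16, Wif1 against negative and Thbs4 against negative, and 2 for Thbs4 against Pi16. The stricter gate gave 3, 4, 1 and 0 for Wif1 against Pi16, Wif1 against Thbs4, Thbs4 against negative and Thbs4 against Pi16. Thinning to 3000 UMIs gave 2, 5, 1 and 1 for Wif1 against Pi16, Wif1 against Thbs4, Wif1 against negative and Thbs4 against negative. Median-ratio scaling gave 1 for Wif1 against negative. The compared groups alone gave 11 for Wif1 against Pi16, 4 for Wif1 against negative, 14 for Thbs4 against Pi16 and 3 for the Pi16 level. Thbs4 against Pi16 gave 4 calls with markers counted from 2 UMIs, 3 with several markers counted and 2 with the mural set used. Without the replicate block, which pairs groups of the same library, there were 3 calls for Wif1 against Pi16 and 1 for Wif1 against negative; the other counts changed by at most 1.5 times. With each library left out in turn, counts ranged from 0 to 0 for Wif1 against Pi16 and for Thbs4 against Pi16, from 0 to 2 for Wif1 against Thbs4 and Thbs4 against negative, and from 3 to 5 for Wif1 against negative. In those fits a group left with 1 sum is assumed to vary like the others; for fibroblasts against macrophages and the Pi16 splits no residual degree of freedom was left. The collagen share of fibroblasts was 0.941% with the stricter gate, 0.924% after thinning and 0.944% as a mean over cells. Causes were not tested. Not run for lack of cells were the stricter gate for fibroblasts against macrophages and for Pi16 against negative, the mural set for the Wif1 comparisons, and the subsets as planned. Median-ratio scaling moved the median of all genes by at most 0.11. Depth limits what 9 Wif1-positive and 15 Thbs4-positive cells of Heart2 can show for chains under 30 CPM, where 3 UMIs are 28.6 and 15.2 CPM.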
